A study of Mus musculus with 10 samples.

Results

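The subject is the heavy chains of mouse major histocompatibility complex (MHC) class I together with their light chain and a transcriptional regulator. The listed genes were the classical heavy chains H2-K1 and H2-D1, the non-classical heavy chains H2-T23, H2-M3, H2-Q4, H2-Q5 and H2-Q7, the light chain gene B2m and the regulator Nlrc5. Every probe set whose platform symbol was one of these 9 genes was taken, whatever its value, which gave 26 of the 45101 probe sets on the array. A probe set of their own was found for 6 of the 9 genes, out of 18193 genes with one in the whole series. Of the 26, 19 named 1 gene, and 7 named several genes, a member among them. The 7 are given apart, because their signal cannot be assigned to 1 gene. H2-T23, H2-Q4 and H2-Q7 were measured only by probe sets that also name a neighbouring class I gene or pseudogene.

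Expression was measured in sorted mouse acute lymphoblastic leukaemia cells, with 1 Affymetrix array for each of 10 animals. The leukaemia, NSTY ALL, arose on a C57BL/6 background, carries human p210 bcr/abl and has the Ink4a/Arf deletion, and all of this is shared by both groups. All recipients were C57BL/6 mice given total body irradiation and 5-fluorouracil. The allogeneic group (5 animals) received the leukaemia mixed with marrow and spleen cells of C3.SW donors, and the syngeneic group (5 animals) received it mixed with the same kinds of cells from C57BL/6 donors. C3.SW is a strain that shares the H2 haplotype of C57BL/6 and differs from it at minor histocompatibility antigens. In both groups the leukaemia was transplanted 3 times in series, with 2 to 3 weeks in each animal, and green fluorescent cells were then sorted. The sources used here give neither age nor sex, nor whether leukaemia of 1 earlier recipient went into several animals. The p-values therefore describe only how these animals varied.

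Class I molecules are heavy chains that fold with beta-2-microglobulin around a short peptide and carry it to the cell surface. The peptides are cut mainly by the proteasome, moved into the endoplasmic reticulum by the TAP transporter and fitted by tapasin and related chaperones. Classical molecules present varied peptides to CD8 T cells and are also read by receptors of natural killer cells, while non-classical molecules have more restricted ligands. Interferons raise transcription of the whole pathway through interferon regulatory factors, and Nlrc5 acts on the class I promoters through the regulatory factor X complex and its partners.

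The heavy chain members lie on chromosome 17 of GRCm38.p6. H2-K1 is at chr17:33996012-34000619 and H2-D1 at chr17:35263094-35267497. The Q region members follow, with H2-Q4 at chr17:35379617-35384674, H2-Q5 at chr17:35394099-35395630 and H2-Q7 at chr17:35439140-35443773. H2-T23 is at chr17:36029977-36032701 and H2-M3 at chr17:37270234-37274485. B2m is on another chromosome, at chr2:122147687-122153082, and Nlrc5 is at chr8:94434335-94527272.

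Promoter windows of 250 bases upstream of an annotated transcript start were taken from RefSeq (GRCm38.p6) for the 7 members that the table held. Those of 5 members are shown as examples of a classical heavy chain, 3 non-classical ones and the light chain, which between them hold each arrangement of the elements found in the 7. Capitals mark matches, on either strand, to a short-spaced interferon response element (GAA and GAAA with any 2 bases between), a long-spaced one (GAAA and GAAA with any 2 bases between) or a kappa B element (GGG and TTCCC with any 2 bases between), letters that were chosen with the windows in view. The windows are chr17:34000348-34000597 on the minus strand for H2-K1, chr17:35438905-35439154 on the plus strand for H2-Q7, chr17:37269984-37270233 on the plus strand for H2-M3, chr17:36032702-36032951 on the minus strand for H2-T23 and chr2:122147437-122147686 on the plus strand for B2m.
H2-K1: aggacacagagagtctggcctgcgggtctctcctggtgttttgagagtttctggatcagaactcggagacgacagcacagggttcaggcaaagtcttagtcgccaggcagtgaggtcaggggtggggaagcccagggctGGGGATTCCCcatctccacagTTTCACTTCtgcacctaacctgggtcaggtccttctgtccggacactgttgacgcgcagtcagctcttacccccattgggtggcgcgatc
H2-Q7: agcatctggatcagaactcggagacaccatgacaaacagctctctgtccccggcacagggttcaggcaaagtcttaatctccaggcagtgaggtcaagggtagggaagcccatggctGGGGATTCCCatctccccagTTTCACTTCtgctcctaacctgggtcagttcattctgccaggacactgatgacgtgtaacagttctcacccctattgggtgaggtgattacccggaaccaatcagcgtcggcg
H2-M3: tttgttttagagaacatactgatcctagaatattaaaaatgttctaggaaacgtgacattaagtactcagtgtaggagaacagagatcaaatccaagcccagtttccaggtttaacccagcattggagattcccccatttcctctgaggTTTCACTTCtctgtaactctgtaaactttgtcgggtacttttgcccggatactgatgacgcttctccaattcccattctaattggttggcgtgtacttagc
H2-T23: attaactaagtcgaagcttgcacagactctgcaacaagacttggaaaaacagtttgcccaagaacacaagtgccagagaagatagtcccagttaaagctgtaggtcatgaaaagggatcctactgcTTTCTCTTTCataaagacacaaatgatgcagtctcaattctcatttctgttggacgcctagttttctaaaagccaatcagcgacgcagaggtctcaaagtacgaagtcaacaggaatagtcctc
B2m: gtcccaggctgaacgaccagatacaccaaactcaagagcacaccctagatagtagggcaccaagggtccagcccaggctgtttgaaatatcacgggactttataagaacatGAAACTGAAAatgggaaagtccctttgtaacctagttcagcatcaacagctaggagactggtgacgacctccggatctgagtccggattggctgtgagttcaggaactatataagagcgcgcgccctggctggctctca
The short-spaced interferon element was in 5 of the 7 member windows (H2-K1, H2-D1, H2-M3, H2-Q4 and H2-Q7) and in 6.31% of 32851 RefSeq windows of the same length. The long-spaced element was in the other 2, H2-T23 and B2m, and in 2.98% of all windows. The kappa B element was in 4 of 7 windows (H2-K1, H2-D1, H2-Q4 and H2-Q7), against 1.53% of all windows. In H2-K1 and in H2-Q7 it lies upstream of the short-spaced element, while the H2-M3 window held the short-spaced element without it. The CCAAT letters of the Y box were in all 7 windows and in 33.8% of all windows. The TGACG letters of the X2 core were in 6 of 7, H2-T23 being the exception, against 17.8% of all windows. In H2-Q4 they lie at -73 to -69 from the start, downstream of a CCAAT match at -79 to -75. In H2-K1 and H2-D1 they lie upstream of the CCAAT matches, so the H2-Q4 match is placed differently. These are matches of letters and no more than that.

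Of the class I members, H2-M3, H2-Q5, 1 of 4 H2-K1 probe sets and 3 probe sets shared between class I genes (H2-T23 with H2-T-ps, H2-Q7 with H2-Q9, and H2-K1 with H2-D1) were higher in the leukaemia of allogeneic animals. B2m, Nlrc5 and the probe sets that name H2-D1 alone did not pass in this fit. Some of those of H2-D1 and B2m passed under alternative settings, named below. Values are log2 intensities after quantile normalization, so a difference of 1 is a doubling. Of the 26 probe sets, 6 had a limma p under 0.05 after Benjamini-Hochberg adjustment, all of them higher in allogeneic samples, and 0 were lower. Over all 45037 non-control probe sets, 0.271% were called higher, 0.14% lower and 0.411% in either direction. The 5 allogeneic values lay wholly above the 5 syngeneic values for 14 of the 26, against 2.37% of all probe sets. The median difference of the 26 was 0.46, and that of all probe sets was -0.014. The RNA comes from sorted cells in bulk, where fewer cells of a type and less RNA per cell cannot be told apart.

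The array's background limit was set from probe sets for bacterial transcripts. Of the 26 probe sets, 20 exceeded it on all 10 arrays, 2 on some and 4 on none. The 20 had a positive difference without exception, against 48.5% of all probe sets. That also held for the deposited values and for values centred on each array's median. The 4 at background were probe sets 1451934_at and 1425614_x_at of H2-D1, 1450582_at of H2-Q5 and 1451593_at, which names H2-Q5 and H2-K1. Their differences are not interpreted.

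**Figure D1:**
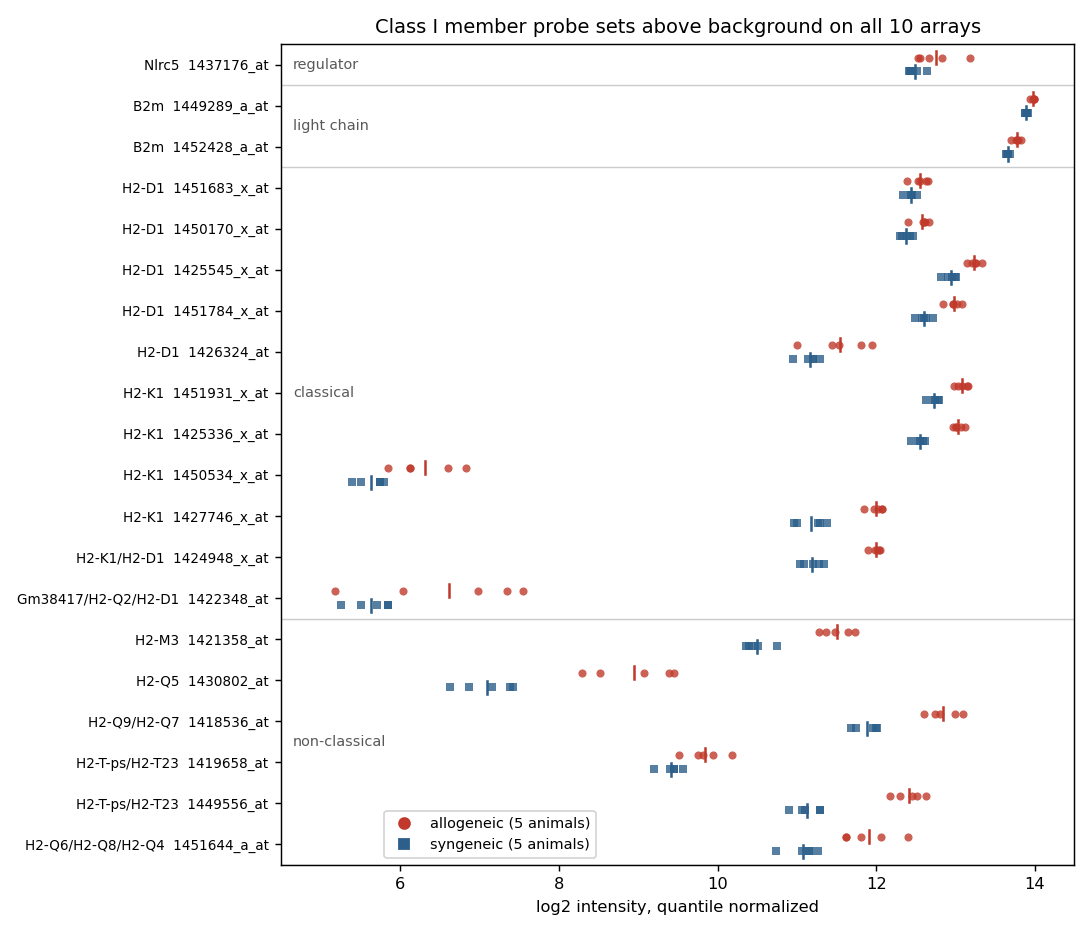
Quantile-normalized log2 intensity (x axis) of the 20 member probe sets above background on all 10 arrays, 1 point per animal, red circles for the 5 allogeneic and blue squares for the 5 syngeneic animals, with a vertical bar at each group's mean. For H2-T23 (1449556_at), H2-M3, H2-Q5 and H2-Q9/H2-Q7 the red points stand wholly to the right of the blue ones, while the points of Nlrc5 overlap.

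Nlrc5 is the transactivator of class I genes, and its probe set did not pass the test. In allogeneic animals 1 to 5 its log2 intensities were 13.18, 12.67, 12.83, 12.55 and 12.52, against 12.64, 12.44, 12.51, 12.43 and 12.41 in syngeneic animals. Allogeneic animal 1 was high, and the other allogeneic values partly overlapped the syngeneic range. The difference was 0.27 (SE 0.15, 95% interval -0.071 to 0.60, adjusted p = 0.406).

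B2m encodes the light chain that every class I heavy chain needs at the surface. Its probe set 1449289_a_at read 13.99, 13.99, 13.99, 13.97 and 13.94 in allogeneic animals and 13.90, 13.88, 13.92, 13.87 and 13.91 in syngeneic animals. The groups did not overlap, but the difference was 0.082 (SE 0.10, adjusted p = 0.719) and did not pass. With intensities under 16 set to 16 this probe set passed (SE 0.014, adjusted p = 0.0421). The second probe set, 1452428_a_at, read 13.79, 13.76, 13.83, 13.78 and 13.70 in allogeneic animals against 13.65, 13.64, 13.66, 13.66 and 13.68 in syngeneic animals. It also did not overlap and did not pass, with a difference of 0.11 (SE 0.10, adjusted p = 0.608). Both lie near the top of the range of these arrays, whose highest value was 14.38. Of 674 probe sets of other genes with a mean above 13, 0 were called by limma (8 at an unadjusted p under 0.05), and the largest difference was 0.67. Of 7083 with a mean between 10 and 13, 31 were called and differences reached 3.59. The part of this in the small B2m differences was not tested.

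The classical heavy chain H2-K1 was measured by 4 probe sets of its own, all with higher values in every allogeneic animal than in any syngeneic animal, of which 1 passed. The one that passed, 1427746_x_at, read 11.85, 11.98, 12.07, 12.03 and 12.07 in allogeneic animals and 10.97, 11.29, 11.01, 11.27 and 11.38 in syngeneic animals. The means were 11.999 ± 0.091 and 11.18 ± 0.18 (SD, n = 5 each), a difference of 0.82 (SE 0.13, limma adjusted p = 0.0322). This call was kept in 1 of 10 fits that left out an animal, the one without allogeneic animal 1 (adjusted p between 0.0145 and 0.111 over the 10). It was also lost with deposited values, with or without centring on each array's median (adjusted p = 0.107 and 0.0714).

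The H2-K1 probe set of highest signal, 1451931_x_at, read 13.14, 13.03, 13.09, 12.99 and 13.16 in allogeneic animals and 12.63, 12.78, 12.73, 12.79 and 12.74 in syngeneic animals. The difference was 0.35 (SE 0.11, adjusted p = 0.162), smaller than that of 1427746_x_at. For 1425336_x_at the difference was 0.48 (SE 0.11, adjusted p = 0.0896) and for 1450534_x_at it was 0.67 (SE 0.20, adjusted p = 0.156). The 4 probe sets ran in the same direction and differed in size and call, with a median difference of 0.58.

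The other classical heavy chain, H2-D1, had 9 probe sets of its own, and limma called 0 of them (5 at an unadjusted p under 0.05, 2 of these among the sets above background on all arrays). The brightest, 1425545_x_at, read 13.25, 13.21, 13.24, 13.14 and 13.33 in allogeneic animals and 12.82, 12.999, 12.95, 13.01 and 12.91 in syngeneic animals. The groups did not overlap, and the difference was 0.30 (SE 0.11, adjusted p = 0.210). For 1451784_x_at the groups also did not overlap, with a difference of 0.37 (SE 0.11, adjusted p = 0.154). Probe sets 1425545_x_at and 1451784_x_at passed with intensities under 16 set to 16 and with trend and robust eBayes. The remaining 3 above background on all arrays overlapped between groups, and the 5 together had differences of 0.11 to 0.39 with a median of 0.30. The 2 above background on some arrays, 1427651_x_at and 1452544_x_at, had differences of 0.64 (adjusted p = 0.190) and 0.61 (adjusted p = 0.182).

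Probe set 1424948_x_at names both H2-K1 and H2-D1 and passed the test. It read 11.90, 11.99, 12.02, 12.05 and 12.04 in allogeneic animals against 11.04, 11.21, 11.09, 11.27 and 11.34 in syngeneic animals. The difference was 0.81 (SE 0.11, adjusted p = 0.0191), larger than most of those of the probe sets that name H2-K1 or H2-D1 alone. The call was lost without allogeneic animal 4 or any of syngeneic animals 1, 2, 3 and 5 (adjusted p between 0.0116 and 0.0733 over the 10 fits), and with values centred on each array's median (adjusted p = 0.0972). Probe set 1422348_at names H2-D1 with H2-Q2 and a predicted gene, and its allogeneic values of 7.35, 6.03, 7.55, 6.98 and 5.17 spread widely around syngeneic values of 5.70, 5.26, 5.85, 5.85 and 5.51. Its difference of 0.99 (SE 0.42) did not pass (adjusted p = 0.274), and it was -0.029 without allogeneic animals 1, 3 and 4. Of the 13 probe sets that name H2-K1 or H2-D1 alone, 11 are of the type marked _x_at, whose probes can also match other transcripts, so their signals may mix class I genes.

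H2-M3, which presents peptides that begin with formylmethionine, was higher in every allogeneic animal. Its probe set 1421358_at read 11.28, 11.48, 11.37, 11.65 and 11.73 in allogeneic animals and 10.36, 10.40, 10.51, 10.74 and 10.44 in syngeneic animals. The lowest allogeneic value exceeded the highest syngeneic value. Means were 11.50 ± 0.19 and 10.49 ± 0.15 (SD, n = 5 each), a difference of 1.01 or 2.01-fold (SE 0.14 on the log2 scale, adjusted p = 0.0171). The call was lost without allogeneic animal 4 or any of syngeneic animals 1, 2, 3 and 5 (adjusted p between 0.00981 and 0.0683), and also with values centred on each array's median (adjusted p = 0.0818).

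H2-Q5, which GRCm38.p6 annotates as a transcribed pseudogene of the Q region, had the largest difference among the members. Probe set 1430802_at read 8.30, 9.39, 9.45, 9.08 and 8.51 in allogeneic animals and 6.63, 7.16, 7.42, 6.86 and 7.39 in syngeneic animals. All allogeneic values were above all syngeneic ones, and animals 1 and 5 were the low ones of the allogeneic group. Means were 8.94 ± 0.52 and 7.09 ± 0.34 (SD, n = 5 each), a difference of 1.85 or 3.61-fold (SE 0.27 on the log2 scale, adjusted p = 0.0206). The call was lost without allogeneic animal 4 or any of syngeneic animals 1, 2, 4 and 5 (adjusted p between 0.00950 and 0.0701). The second H2-Q5 probe set, 1450582_at, was not well above background on any array.

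H2-T23 encodes the heavy chain of Qa-1, which presents leader peptides of other class I chains to inhibitory natural killer receptors. Probe set 1449556_at, which also names the pseudogene H2-T-ps, read 12.52, 12.45, 12.63, 12.17 and 12.30 in allogeneic animals and 10.90, 11.29, 11.29, 11.11 and 11.06 in syngeneic animals. Every allogeneic value was above every syngeneic one. Means were 12.41 ± 0.18 and 11.13 ± 0.17 (SD, n = 5 each), a difference of 1.28 or 2.44-fold (SE 0.14 on the log2 scale, adjusted p = 0.00399). It was the only member call kept in all 10 fits that left out an animal (adjusted p between 0.00778 and 0.0237). The other probe set with the same symbols, 1419658_at, overlapped between groups, with means of 9.84 and 9.41 and a difference of 0.43 (SE 0.15, adjusted p = 0.198), so the size depends on the probe set.

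H2-Q7 and its neighbour H2-Q9 encode Qa-2, and 1 probe set names both. Probe set 1418536_at read 13.09, 12.80, 12.99, 12.61 and 12.75 in allogeneic animals and 12.01, 11.74, 11.96, 11.69 and 12.001 in syngeneic animals, without overlap. The difference was 0.97 (SE 0.14, adjusted p = 0.0212), and the call was lost whichever syngeneic animal was left out (adjusted p between 0.0140 and 0.0763). H2-Q4 shares probe set 1451644_a_at with H2-Q6 and H2-Q8, which read 12.40, 11.81, 11.62, 11.63 and 12.06 in allogeneic animals and 11.27, 10.73, 11.15, 11.16 and 11.07 in syngeneic animals. These groups also did not overlap, but the difference of 0.83 (SE 0.18) did not pass (adjusted p = 0.0961).

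**Figure D2:**
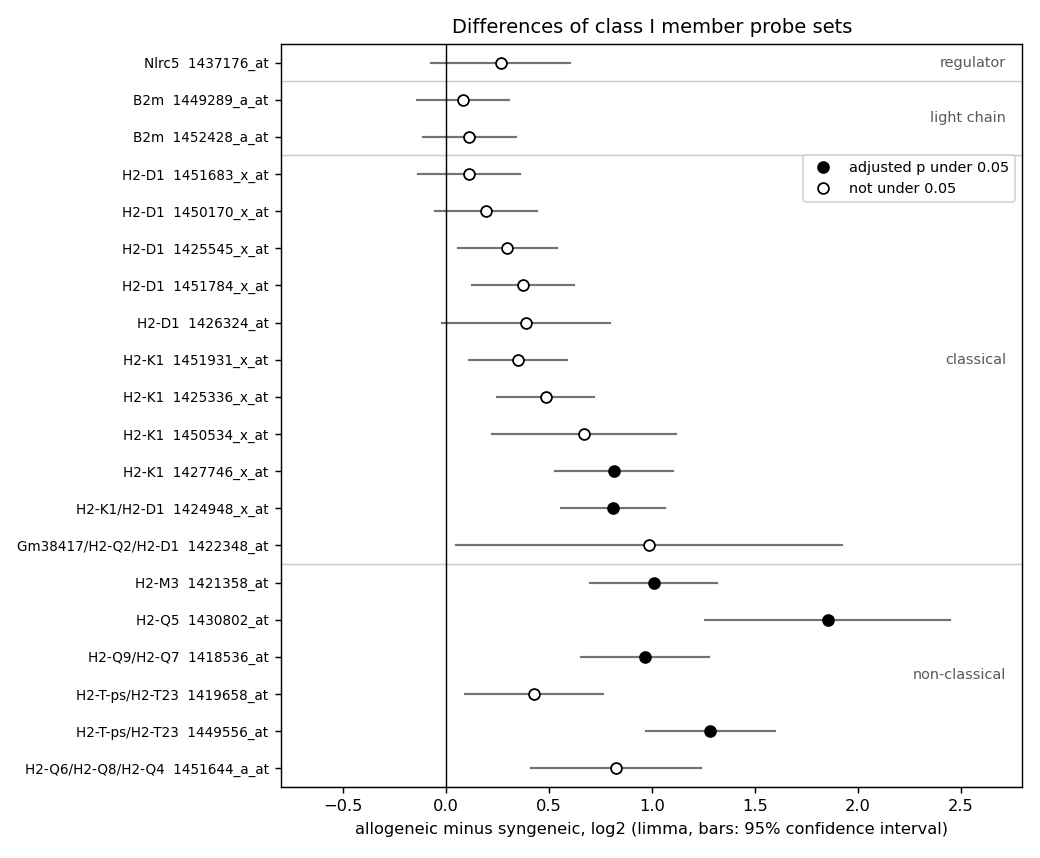
Difference of allogeneic minus syngeneic means (x axis, log2) of the same 20 probe sets, with 95% confidence intervals from limma and filled points where the adjusted p was under 0.05. Non-classical differences run from 0.43 to 1.85, classical ones from 0.11 to 0.99, and those of B2m are 0.082 and 0.11. The 0.99 is that of 1422348_at, which names H2-Q2 beside H2-D1.

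Set side by side over probe sets above background on all arrays, the 11 classical sets had a median difference of 0.39 and 2 calls. The 6 non-classical sets had a median of 0.99 and 4 calls. The classical sets include 1422348_at, which names H2-Q2 beside H2-D1. Probe sets of a gene share that gene's RNA and are not replicates, so the classes were also set against each other within each animal. The brightest probe set stood for each gene, and each animal's value was taken relative to the syngeneic mean. The mean of H2-K1 and H2-D1 was 0.23 to 0.41 above the syngeneic mean in allogeneic animals, against -0.11 to 0.067 in syngeneic animals. The mean of H2-M3 and H2-Q5 was 1.00 to 1.64 above it in allogeneic animals, against -0.30 to 0.18 in syngeneic animals.

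The classical minus the non-classical mean was therefore lower in allogeneic animals by -1.11 on the log2 scale (SE 0.16), and the 2 groups did not overlap. It was -0.69 without H2-Q5 and -0.86 (SE 0.064) when the probe sets of several symbols for H2-T23, H2-Q4 and H2-Q7 were added. When all probe sets of a gene were averaged, those at background included, it was -0.086 (SE 0.17) and the groups overlapped. When only probe sets above background on all arrays were averaged it was -1.004 (SE 0.16). The averaging over all probe sets was planned. The settings without H2-Q5, with the several-symbol probe sets and with only probe sets above background were added after seeing the data. Since the members were chosen with earlier results known, no p-value is given for this contrast. The probe sets that stood for H2-K1 and H2-D1 averaged 13.08 and 13.24 in allogeneic animals, and those for H2-M3 and H2-Q5 11.50 and 8.94. Among the 674 probe sets of other genes with a mean above 13, limma called 0 and the largest difference was 0.67. The dimmer H2-K1 sets differed, from bright to dim, by 0.48, 0.82 and 0.67. The dimmer H2-D1 sets above background on all arrays differed, from bright to dim, by 0.37, 0.11, 0.19 and 0.39. The 2 H2-D1 sets above background on some arrays differed by 0.64 and 0.61. Probe set 1424948_x_at, which names both genes, differed by 0.81. The part of signal level in the contrast was not tested.

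**Figure D3:**
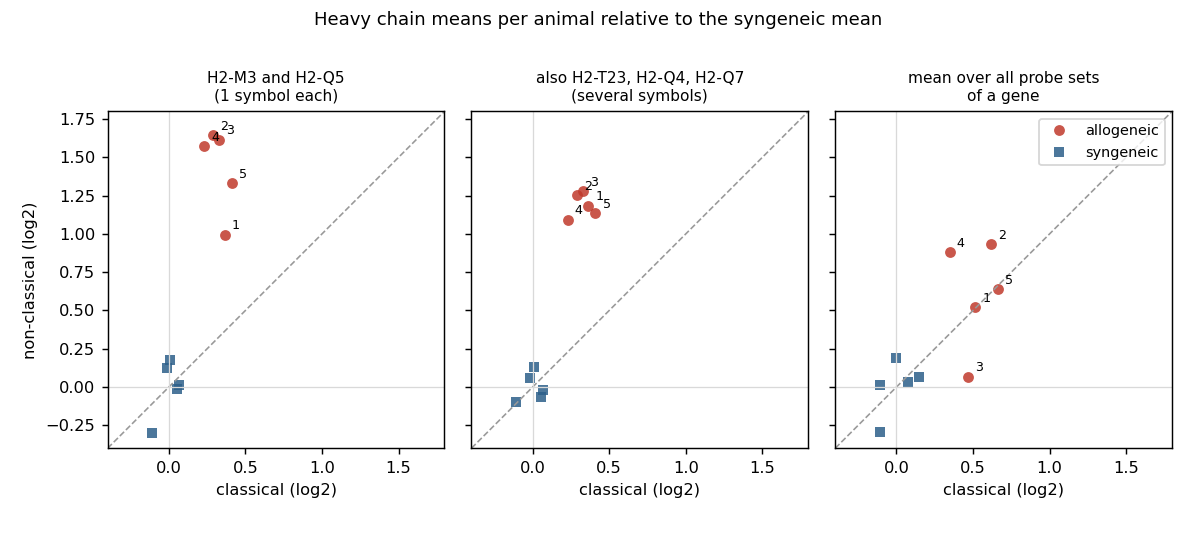
Mean of the non-classical members (y axis) against mean of the classical members H2-K1 and H2-D1 (x axis), each relative to its syngeneic mean in log2, 1 point per animal, red circles for allogeneic and blue squares for syngeneic animals, with a dashed line of equal change. The allogeneic points lie above the line with H2-M3 and H2-Q5 (left) and with H2-T23, H2-Q4 and H2-Q7 added (middle), and on both sides of it when all probe sets of a gene are averaged (right).

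Within the allogeneic group the members did not order the animals alike. Allogeneic animal 1 had the highest value of its group in 7 of the 20 probe sets above background, among them Nlrc5, H2-Q9/H2-Q7 and H2-Q6/H2-Q8/H2-Q4. It had the lowest in 5, among them H2-M3 and H2-Q5. Allogeneic animal 4 was lowest in 7. The arrays of allogeneic animals 1, 3 and 4 had a lower quartile of deposited intensity of 18.7 to 19.5, against 13.8 to 14.4 in the syngeneic group. Without these 3 animals, which leaves allogeneic animals 2 and 5, 9 member probe sets were called, including all 6 above. Calls over all 45037 probe sets went from 185 to 2035 in that fit, so the 9 is not particular to the members.

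Other genes of the pathway were read from lists of 65 genes in all, with 1 probe set per gene, of which 45 were measured. limma called 4 higher and 0 lower, and their median difference was 0.11, against 0.011 over all genes. Among all 18193 genes, 0.368% were called higher and 0.055% lower. The 4 were Irf1, Tapbpl, Psmb9 and Tap1.

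Of 8 peptide transport and loading genes, 2 rose. Tapbpl, a tapasin relative that edits the peptides bound by class I, averaged 9.72 in allogeneic and 8.16 in syngeneic animals, a difference of 1.56 (SE 0.12, adjusted p = 0.000601). Tap1, a subunit of the peptide transporter, averaged 12.34 in allogeneic and 11.40 in syngeneic animals, a difference of 0.93 (SE 0.16, adjusted p = 0.0484). The Tap1 call was kept in 1 of 10 fits that left out an animal, and it was lost with deposited values with or without centring on each array's median (adjusted p = 0.0818 and 0.0624). Of its 3 other probe sets, the one above background on all arrays had a difference of 0.30 (adjusted p = 0.654), and the rest were at background on most or all arrays. The aminopeptidase Erap1 (0.56, adjusted p = 0.110), Tap2 (0.37, adjusted p = 0.255) and tapasin itself, Tapbp (0.28, adjusted p = 0.270), did not pass. The general chaperones Calr, Canx and Pdia3 had differences of 0.0042, -0.018 and 0.026.

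Of 4 measured proteasome genes, 1 rose. It was Psmb9, an interferon-inducible catalytic subunit of the immunoproteasome, with a difference of 1.16 (SE 0.13, adjusted p = 0.00577). Its call was lost with values centred on each array's median (1.07, adjusted p = 0.0732). The other 2 catalytic subunits, Psmb10 and Psmb8, had differences of 0.79 (adjusted p = 0.0864) and 0.26 (adjusted p = 0.266), and the activator subunit Psme1 had 0.13 (adjusted p = 0.561).

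Of 19 regulators, 1 rose. Irf1, a transcription factor that binds interferon response elements of the kind printed in capitals above, averaged 11.88 in allogeneic and 10.17 in syngeneic animals, a difference of 1.71 (SE 0.15, adjusted p = 0.00141). Irf9, which pairs with signal transducers downstream of type I interferon, had 0.99 (adjusted p = 0.101), and Stat2 had 0.21 (adjusted p = 0.614). Rfx5, a subunit of the regulatory factor X complex through which Nlrc5 acts, had -0.094 (adjusted p = 0.785).

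Of 12 other class I heavy chain and class I-like genes with a probe set of their own, 0 passed (4 at an unadjusted p under 0.05). These 4 were H2-T24 (0.61, adjusted p = 0.145), Mr1 (0.44, adjusted p = 0.157), H2-Bl (0.78, adjusted p = 0.160) and Cd1d1 (0.40, adjusted p = 0.174). H2-Q2, H2-Q10 and H2-M9 were above background on no array. Probe sets that name several of these genes did pass in 2 cases. One names H2-T9, H2-T22 and H2-T10, the last 2 of which encode ligands of gamma delta T cells, and averaged 12.59 in allogeneic and 11.58 in syngeneic animals (difference 1.01, SE 0.11, adjusted p = 0.00384). Another probe set with the same symbols did not pass (0.20, adjusted p = 0.766). The other names H2-Q6 and H2-Q8 and averaged 12.80 in allogeneic and 11.94 in syngeneic animals (difference 0.86, SE 0.15, adjusted p = 0.0451). Of the ligands of the activating receptor NKG2D, 2 of 9 were measured by probe sets of their own. H60c (-1.11, adjusted p = 0.185) and Ulbp1 (0.048) did not pass, and H60c was above background on 1 allogeneic and 5 syngeneic arrays. A probe set that names Raet1e and Raet1d did not pass either (0.51, adjusted p = 0.339).

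**Figure D4:**
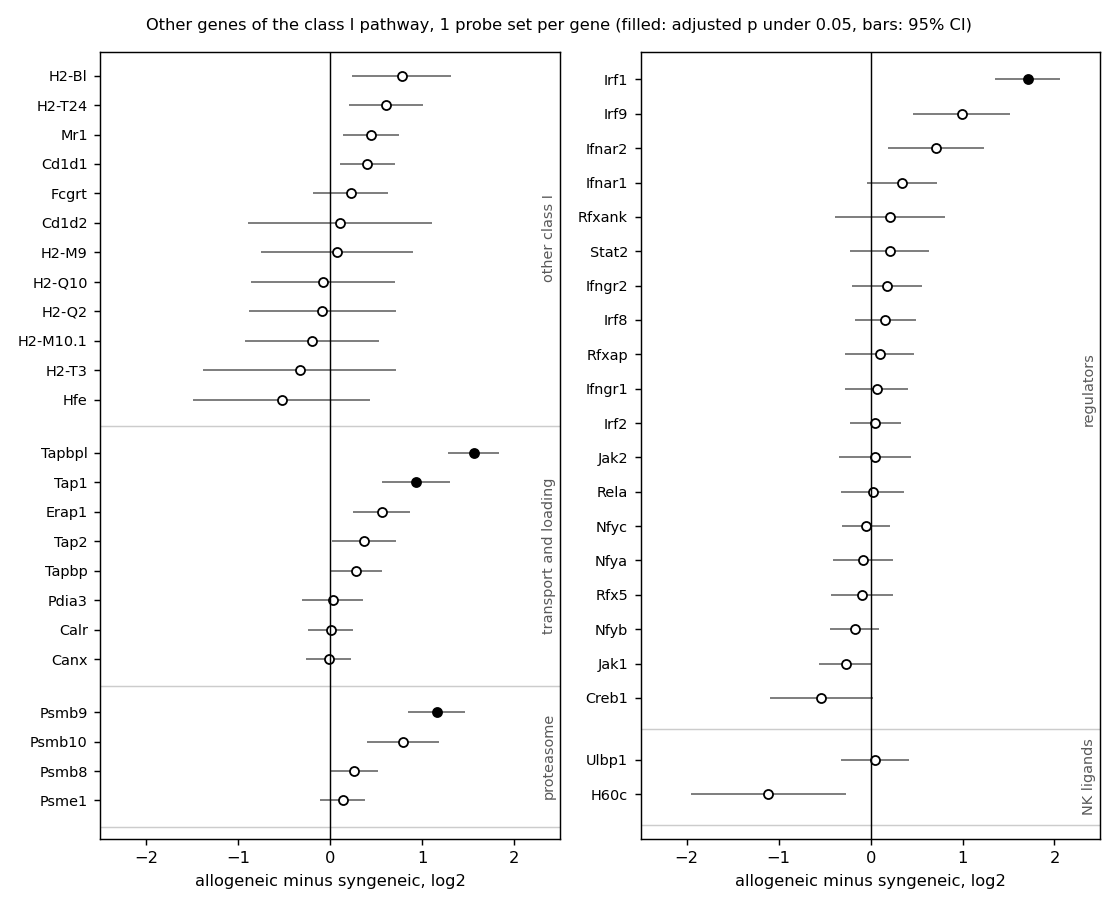
Difference of allogeneic minus syngeneic means (x axis, log2) of the 45 measured pathway genes, 1 probe set per gene, with 95% confidence intervals and filled points where the adjusted p was under 0.05. The filled points are Tapbpl, Tap1, Psmb9 and Irf1, and those of Calr, Canx and Pdia3 sit at the zero line.

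Genes whose values followed 3 of the members most closely were found over the 10 arrays among 10449 genes above background. Both groups enter this measure, so a gene that differs between groups in the same way scores high, and it is a description only. For H2-K1 the 5 closest were Dgcr6 (Pearson's r = 0.98), Irf1 (0.97), Tapbpl (0.97), Cd99l2 (0.97) and Ica1 (0.96). For B2m they were Rnf213 (0.97), Tnfsf10 (0.96), Igtp (0.96), Irgm2 (0.96) and Eif4e3 (0.96). For Nlrc5 they were Fndc3b (0.91), Serinc5 (0.90), Asb13 (0.89), Asah2 (0.89) and Chd8 (0.89).

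The labelled cell type was checked against markers. Of 11 measured B progenitor markers, 0 were called by limma (1 at an unadjusted p under 0.05), with a median difference of 0.023, and Vpreb1, the surrogate light chain gene of B cell precursors, averaged 13.68 in allogeneic and 13.64 in syngeneic animals. Pax5 was the exception among the defining genes, with 4.37 in allogeneic and 5.58 in syngeneic animals, close to the background limit. Markers of other cells that express class I were summed as linear intensities, and 0 of them were called (6 at an unadjusted p under 0.05 over the 5 lists). T cell markers summed to 301 to 394 in allogeneic and 291 to 360 in syngeneic animals, with Cd8b1 and Cd28 at background on every array. Natural killer markers summed to 1241 to 2070 in allogeneic and 1008 to 1505 in syngeneic animals, with Ncr1, Klrk1 and Gzmb at background. The brightest, Gzma, averaged 9.92 in allogeneic and 8.86 in syngeneic animals, a difference of 1.06 (SE 0.26, adjusted p = 0.110). Of the 7 measured natural killer markers 4 had a positive difference, and their median was 0.27. Macrophage markers summed to 12329 to 14109 in allogeneic and 8877 to 11231 in syngeneic animals without overlap, with Cd14 at background. Of the 10 macrophage markers 4 had a positive difference, and their median was -0.086. The brightest were Mpeg1, which averaged 12.63 in allogeneic and 11.95 in syngeneic animals, and Fcgr3, with 12.46 in allogeneic and 12.25 in syngeneic animals. The other positive ones were Adgre1 and Lyz2, with differences of 1.44 and 0.33. Adgre1 averaged 5.03 in allogeneic and 3.59 in syngeneic animals, and was above background on 3 allogeneic and 0 syngeneic arrays. Csf1r, Cd68, C1qa, C1qb and Ms4a7 had differences of -0.11, -0.19, -0.30, -0.32 and -0.12. Dendritic cell markers summed to 775 to 1365 in allogeneic and 604 to 1100 in syngeneic animals, with Itgax at background. Stromal markers summed to 797 to 1045 in allogeneic and 595 to 777 in syngeneic animals without overlap, with Emcn and Cxcl12 at background. Pecam1 was the brightest and weighed most in this sum, with 9.16 in allogeneic and 8.75 in syngeneic animals (difference 0.41, adjusted p = 0.256). All 10 stromal markers had a positive difference, with a median of 0.43, and 2 of them were above background on all arrays. The part of the natural killer, macrophage and stromal markers in the class I differences was not tested. Ratios of 3' to 5' Gapdh control signal, which track RNA degradation, were 1.39 to 1.57 in allogeneic and 1.48 to 1.59 in syngeneic samples.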

How the data were processed

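The deposited table gives 1 linear intensity per probe set and array. The sources used here do not state how the authors summarised and scaled these intensity values. Probe sets were named from the platform annotation, with symbols updated to GRCm38.p6 for the 35582 probe sets whose gene identifiers all matched, leaving 9160 without a symbol, 932 with more than 1 and 34945 with exactly 1, beside 64 controls. Log2 values were quantile normalized (limma 3.58.1, R 4.3.3), and the 5 allogeneic animals were compared with the 5 syngeneic ones by lmFit and eBayes over all 45037 non-control probe sets, without a filter, with Benjamini-Hochberg adjustment. All adjusted p-values come from limma. Background was taken on each array from 27 bacterial probe sets, at their 95th percentile, between 4.50 and 5.32 on the log2 scale. The number of arrays limits the precision. Where 1 probe set stands for a gene, it is the one of highest mean.

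All member probe sets were eligible to be named, with list members that passed, the 4 of smallest p in each list, the brightest and defining markers, and 5 genes most like H2-K1, B2m and Nlrc5. Further pathway genes (the remaining loading and proteasome genes, Stat2, Rfx5 and the probe set of Raet1e and Raet1d) and macrophage markers were named after their values were seen. The members, the gene lists and the tests were chosen with earlier results of these data known. The fit was tested on simulated data before use. Alternatives changed the scaling, the filter, a floor on intensity, the eBayes settings, the replicate block, the probe set per gene and the animals included.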

Additional observations from a re-analysis of the deposited data

How the results depend on the processing

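Of 416 comparisons of a single member or pathway result with an alternative, 344 kept direction and side of the threshold. In 56 the call was lost, in 15 it was gained, and 1 reversed (probe set 1422348_at of Gm38417, H2-Q2 and H2-D1, at -0.029 without allogeneic animals 1, 3 and 4). Only the 6 called member probe sets and the 4 called pathway genes could lose a call, so all 56 losses are theirs. Losses ranged from 1 of 17 settings for 1449556_at to 12 of 17 for 1427746_x_at, and were 13 of 19 for Tap1. The 6 called member probe sets became 3 with deposited values centred on each array's median (without H2-M3 and the H2-K1 and H2-K1/H2-D1 probe sets). They became 11 with intensities under 16 set to 16 and 11 with trend and robust eBayes. Both settings added 1425545_x_at and 1451784_x_at of H2-D1 and 1451931_x_at and 1425336_x_at of H2-K1. The floor also added 1449289_a_at of B2m, and trend and robust eBayes added 1451644_a_at of H2-Q6, H2-Q8 and H2-Q4. With 1 probe set per gene only 6 member genes enter, without the several-symbol probe sets, and 2 were called (H2-M3 and H2-Q5). Leaving out 1 animal gave 1 to 8 calls, 8 without allogeneic animal 1 and 1 without syngeneic animal 1, 2 or 5. The 185 calls over all probe sets became 423 without the lower 25% by mean, 454 with the floor, 482 with trend and robust eBayes, 106 of 18193 genes with 1 probe set per gene, 2035 without allogeneic animals 1, 3 and 4, and 70 to 2035 on leaving out 1 animal, the highest without allogeneic animal 1. The 4 called pathway genes became 2 with centred values (without Psmb9 and Tap1), 7 with trend and robust eBayes, 9 without allogeneic animals 1, 3 and 4, and 3 to 6 on leaving out 1 animal. The classical minus non-classical difference of -1.11 became -0.69 without H2-Q5, -0.086 over all probe sets of a gene and -1.24 to -1.04 on leaving out 1 animal. The cause of these changes was not tested. Animals with the same replicate number did not deviate together in every pair (r of 0.34, 0.37, -0.012, -0.24 and -0.15). For allogeneic animals 1 and 2 the most alike syngeneic animal had the same number, and for 3, 4 and 5 it did not. These values cannot decide whether the numbers mark pairs, because deviations of whole arrays enter them too. With the replicate block, limma called 0 member probe sets (16 at an unadjusted p under 0.05), 7 probe sets in all and 0 pathway genes. Array signal limits the 4 member probe sets that were at background on every array, whose differences are not interpreted.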
